A study of Mus musculus with 10 samples.

Results

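The genes described here are 44 regulators that carry a cell into mitosis, through chromosome segregation and out again by cytokinesis. They were picked by name, for the part each plays in division, and all 44 were found among the 55573 Ensembl genes of the count table. All 44 also passed the low-count filter, with at least 126 counts for any member in any library. Reads came from B-cell progenitors of the bone marrow, in 10 libraries, 5 sorted for high and 5 sorted for low fluorescence of a GFP-tagged histone H2B. Both groups carried the PAX5-ELN fusion, a transcription factor joined to elastin that occurs in B-cell acute lymphoblastic leukemia, together with the H2B-GFP reporter. Both groups had doxycycline as treatment and 35 days as time. The labels call the GFP high cells quiescent and the GFP low cells proliferating, since the tagged histone is diluted at each division. The age of the mice, the promoters that drive the fusion and the reporter, the doxycycline schedule and whether a library is 1 animal or a pool are not stated in the sources used here. P-values therefore measure the spread between these libraries, which may be partly technical.

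Entry into mitosis is driven by the kinase CDK1, which needs cyclin A or cyclin B and is held off by inhibitory phosphates that WEE1 and PKMYT1 add and CDC25 phosphatases remove. Polo and aurora kinases then build the spindle. The anaphase-promoting complex, a ubiquitin ligase switched on first by CDC20 and later by CDH1 (gene Fzr1), destroys cyclin B and securin so that chromosomes separate and the cell divides. In early B-cell development, bursts of division alternate with resting phases in which antigen receptor genes are rearranged, and most of these mitotic genes are transcribed late in the cycle and shut off in resting cells.

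The libraries held 10640894 to 14858520 counts. The 12 B-cell progenitor markers were all detected, with a summed level of 13930 to 16180 CPM (counts scaled to library size) in the GFP high libraries and 10470 to 11960 CPM in the GFP low ones. By the edgeR test described below, 5 of the 12 were higher in GFP high (Cd79a, Ebf1, Igll1, Rag1 and Il7r) and 0 lower. Of all tested genes 12.0% were higher and 15.4% lower. Libraries numbered 3 in both groups had 9 and 2 Y-linked counts, whereas the other 8 had 309 to 2654. Without both of them 41 of the 44 genes described here fell, in place of 43, against 10.7% of the genes tested without them.

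Some markers of other cell types also differed between the groups. The 8 NK cell markers summed to 187.7 to 329 CPM across GFP high and 66.5 to 167.5 CPM across GFP low, of which Klrb1c alone gave means of 274 and 107 CPM, while Gzma and Eomes were at 0 in every library. The 7 markers of stroma and endothelium summed to 254.4 to 305 against 142 to 178 CPM, mostly from Pecam1 (262 and 149.5 CPM on average). The 9 monocyte and macrophage markers summed to 81.5 to 123 against 46.0 to 87.9 CPM, with Csf1r higher in GFP high (26.1 against 5.92 CPM on average), and the 9 erythroid markers to 19.4 to 47.5 against 9.39 to 23.7 CPM. These 4 summed levels were thus higher in GFP high, with overlap for the monocyte and erythroid lists. The 10 T-cell markers (2.19 to 5.97 against 3.01 to 11.4 CPM, Lck lower in GFP high and Cd8a at 0), 9 neutrophil markers (3.58 to 12.6 against 3.39 to 7.99 CPM) and 6 megakaryocyte markers (4.01 to 6.62 against 5.33 to 9.68 CPM, Gp1bb at 0) were low in both groups. The 6 basophil and mast cell markers did not exceed 1.39 CPM in sum, with Fcer1a and Ms4a2 at 0. The 6 plasmacytoid dendritic cell markers, some of which B-cells also express, summed to 791 to 902 against 789 to 909 CPM, but single genes moved in both directions. Siglech rose from a mean of 0.154 to 3.70 CPM (edgeR adjusted p = 0.00023), Tcf4 rose and Spib fell. Among 7 plasma cell markers (652 to 1116 against 539 to 841 CPM) Jchain was lower, at 0.629 against 56.7 CPM on average, and Sdc1 and Xbp1 were higher in GFP high. Whether these marker transcripts came from other cell types or from the B-cell progenitors themselves was not tested. What part other cells might have in the mitotic values was not tested either.

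Nearly all of these genes were lower in the GFP high cells. Of 44 genes 43 fell and 0 rose (edgeR's quasi-likelihood test at 0.05, after Benjamini-Hochberg adjustment over 12772 genes), where 15.4% of all tested genes fell and 12.0% rose. The one gene that did not pass was Pkmyt1, and it too was lower in all 5 pairs of equally numbered libraries. The median log2 fold change (GFP high over GFP low) of the 44 genes was -1.07, against 0.03 over all tested genes, and single genes ranged from -1.50 for Cdc25c to -0.37 for Wee1. For 38 of the 44 genes every GFP high library lay below every GFP low library, as it did for 12.6% of tested genes, and for 0 of the 44 the order was reversed, as it was for 7.92%. By size, 29 of the 44 fell at least 2-fold, as did 2.85% of tested genes. Summed over the 44 genes, the level was 4287, 5102, 4228, 3734 and 4036 CPM in GFP high libraries 1 to 5 and 8522, 10420, 9303, 8201 and 8817 CPM in GFP low libraries 1 to 5. The GFP high libraries were thus not devoid of mitotic transcripts. In such bulk libraries, fewer cells that express a gene and less of its RNA per cell cannot be told apart.

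**Figure D1:**
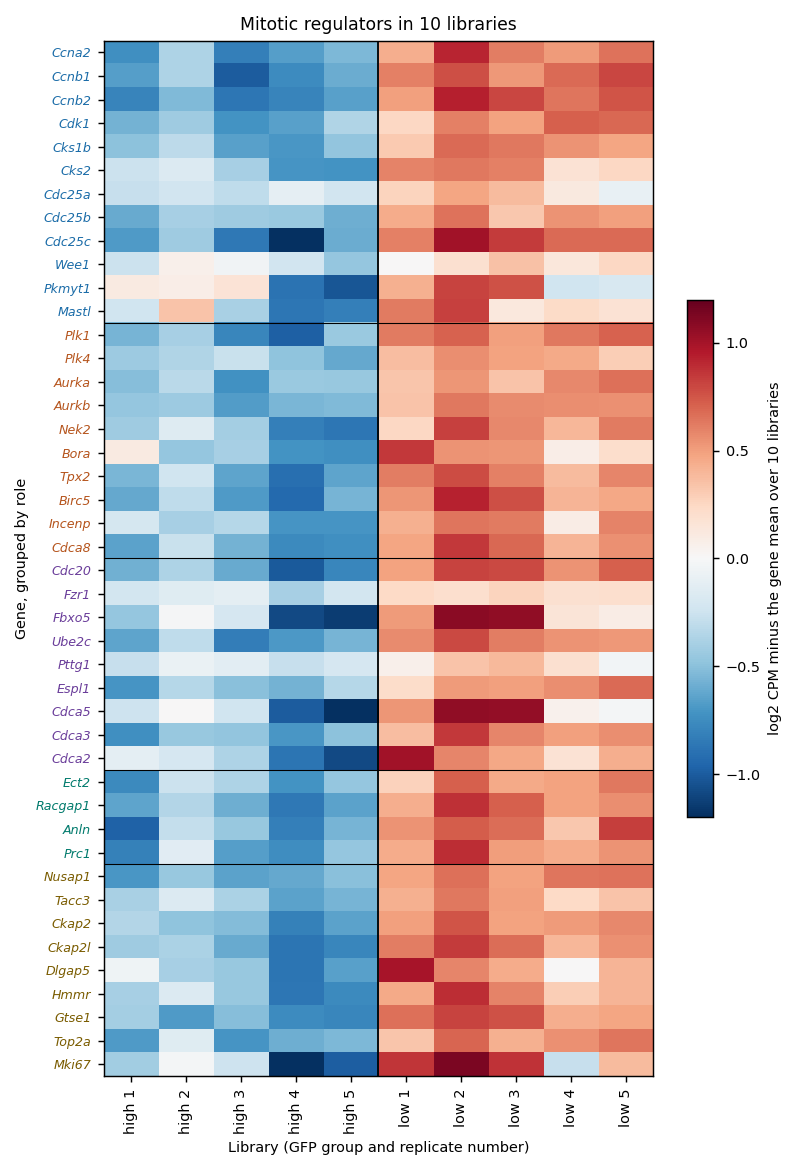
Each row is 1 of the 44 genes, coloured by role, and each column 1 library; colour gives log2 CPM minus the mean of that gene over the 10 libraries (blue lower, red higher). The 5 GFP high libraries are mostly blue and the 5 GFP low libraries mostly red, with Wee1, Pttg1 and Fzr1 pale throughout and Pkmyt1, Fbxo5, Cdca5 and Mki67 also differing between replicates 1 to 3 and replicates 4 and 5.

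The promoters of these genes were also read for known motifs. Promoters of many mitotic genes are known to carry a cell cycle genes homology region, usually TTTGAA, that binds the DREAM complex in resting cells and B-MYB and FOXM1 complexes in dividing cells, together with CCAAT boxes that bind NF-Y. RefSeq windows (GRCm38.p6) of 250 bases before to 50 after the annotated start were held for 34 of the 44 genes, and the first listed start of each gene was used. TTTGAA, on either strand, occurred in 21 of the 34 windows (61.8%), against 12.2% of 9115 windows of tested genes and 18.1% of all 27025 windows. Within 50 bases of the start it occurred in 19 of 34 (55.9%), against 3.10% of windows of tested genes. CCAAT, on either strand, occurred in 27 of 34 (79.4%), against 39.8% of windows of tested genes, and both motifs occurred in 19 of 34 (55.9%), against 5.17%. A single TTTGAA match, 1 in all, shared bases with a CCAAT match. The 44 genes were picked as mitotic regulators, a class known to carry these motifs, so these shares describe the class picked. The further gene lists below were not searched.

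The windows below are those of the 3 genes with the largest fall among the 34, of Cdk1 itself, and of the 3 genes with the smallest fall. They are written 5′ to 3′ on the gene's strand, with TTTGAA and CCAAT in capitals. A match on the other strand reads TTCAAA for the former. For the latter it reads ATTGG.
Ccnb2 (chr9:70421505-70421804, minus strand): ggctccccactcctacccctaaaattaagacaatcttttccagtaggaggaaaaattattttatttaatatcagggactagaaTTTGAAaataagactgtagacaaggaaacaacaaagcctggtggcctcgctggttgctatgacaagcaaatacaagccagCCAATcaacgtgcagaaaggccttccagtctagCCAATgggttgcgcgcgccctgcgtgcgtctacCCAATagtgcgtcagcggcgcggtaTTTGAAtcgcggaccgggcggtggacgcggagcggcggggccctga
Ccnb1 (chr13:100786437-100786736, minus strand): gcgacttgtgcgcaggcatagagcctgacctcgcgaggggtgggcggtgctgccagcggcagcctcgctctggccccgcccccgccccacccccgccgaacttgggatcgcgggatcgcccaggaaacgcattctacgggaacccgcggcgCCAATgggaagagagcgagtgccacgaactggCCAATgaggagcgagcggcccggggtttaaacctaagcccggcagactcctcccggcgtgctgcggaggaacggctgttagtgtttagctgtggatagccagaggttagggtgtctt
Cdc20 (chr4:118437294-118437593, minus strand): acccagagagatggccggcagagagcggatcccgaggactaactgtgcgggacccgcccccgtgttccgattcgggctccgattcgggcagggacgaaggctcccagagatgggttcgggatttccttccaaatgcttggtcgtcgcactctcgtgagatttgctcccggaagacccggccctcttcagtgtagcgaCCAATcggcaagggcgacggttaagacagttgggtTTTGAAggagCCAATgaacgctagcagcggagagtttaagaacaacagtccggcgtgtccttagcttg
Cdk1 (chr10:69352863-69353162, minus strand): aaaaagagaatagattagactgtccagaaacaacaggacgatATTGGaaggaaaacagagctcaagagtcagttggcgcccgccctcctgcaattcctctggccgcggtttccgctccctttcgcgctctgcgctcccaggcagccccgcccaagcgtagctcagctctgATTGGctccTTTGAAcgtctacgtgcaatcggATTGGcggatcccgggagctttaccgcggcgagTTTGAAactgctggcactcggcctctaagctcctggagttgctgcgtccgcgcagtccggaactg
Cdc25a (chr9:109875329-109875628, plus strand): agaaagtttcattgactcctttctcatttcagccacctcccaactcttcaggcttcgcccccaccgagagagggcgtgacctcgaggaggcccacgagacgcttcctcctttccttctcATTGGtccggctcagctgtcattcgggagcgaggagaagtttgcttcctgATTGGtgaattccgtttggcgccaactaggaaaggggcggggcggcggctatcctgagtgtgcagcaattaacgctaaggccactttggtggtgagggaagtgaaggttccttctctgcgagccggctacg
Fzr1 (chr10:81378321-81378620, minus strand): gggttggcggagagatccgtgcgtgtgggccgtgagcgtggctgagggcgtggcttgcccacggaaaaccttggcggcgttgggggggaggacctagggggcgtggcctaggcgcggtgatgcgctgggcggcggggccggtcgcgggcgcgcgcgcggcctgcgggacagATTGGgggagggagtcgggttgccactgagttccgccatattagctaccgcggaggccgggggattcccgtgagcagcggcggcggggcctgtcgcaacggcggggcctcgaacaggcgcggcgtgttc
Pttg1 (chr11:43425932-43426231, minus strand): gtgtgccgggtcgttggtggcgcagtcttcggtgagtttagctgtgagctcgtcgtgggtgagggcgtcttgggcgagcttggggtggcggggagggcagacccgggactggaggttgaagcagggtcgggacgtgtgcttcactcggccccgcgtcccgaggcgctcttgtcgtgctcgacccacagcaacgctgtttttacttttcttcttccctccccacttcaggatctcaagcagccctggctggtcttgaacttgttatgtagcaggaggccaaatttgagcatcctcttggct

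Counting from the annotated start at 0, TTTGAA began at -167 and 4 in Ccnb2, at -18 in Cdc20 and at -71 and -15 in Cdk1. Ccnb2 had CCAAT at -87, -54 and -21, and Cdk1 had it on the other strand at -208, -80 and -48. The Ccnb1 window held CCAAT at -99 and -67 and no TTTGAA. The windows of the 3 least changed genes among the 34, Pttg1, Fzr1 and Cdc25a, held no TTTGAA either, and Pttg1 held neither motif. The Pttg1 window, however, lies wholly inside the gene as GENCODE annotates it, whose 5′ end is 270.0 bases upstream of the RefSeq start used, so it holds no sequence upstream of that end. The same was true of 3 of the 34 windows (Pttg1, Cdca8 and Cdca3), and the GENCODE 5′ end of Fzr1 is 146 bases upstream of the start used. Across the 34 genes the log2 fold change had a median of -1.15 in the 21 with TTTGAA, none of them above -0.98, and a median of -0.90 in the 13 without it. These 13 included both Ccnb1 (-1.34) and Pttg1 (-0.39). Only the exact letters were searched, so a variant of the element would be counted as absent. The 10 genes without a window are in neither set, and they include both Cdc25c (-1.50) and Wee1 (-0.37). Whether the fall differs between genes with and without the motif was not tested. A match is a stretch of letters and not a bound site, and a window without one says nothing of the factors.

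Of the 12 genes of CDK1 activation 11 fell, 0 rose and 1 did not pass. Ccnb1, the main mitotic cyclin (ENSMUSG00000041431, mm10 chromosome 13, 100778650 to 100786570), had 118, 144, 93.6, 111 and 124 CPM in GFP high libraries 1 to 5 and 283, 319.5, 268, 298 and 326 CPM in GFP low libraries 1 to 5. No GFP high library came near the lowest GFP low library. The log2 fold change was -1.34 ± 0.11 (SE, edgeR adjusted p = 1.24e-05). Ccnb2, the other B cyclin (ENSMUSG00000032218, mm10 chromosome 9, 70407692 to 70421547), had 114, 136, 108, 114 and 126 CPM in the GFP high libraries and 278, 376, 344, 309 and 333 CPM in the GFP low ones and fell by 1.45 ± 0.10 on the log2 scale (edgeR adjusted p = 6.18e-06). Again no library of one group reached the other. Ccna2, whose cyclin acts in S phase and at the start of mitosis (ENSMUSG00000027715, mm10 chromosome 3, 36564865 to 36572150), had 195, 251, 184, 205 and 224 CPM against 438, 611, 496, 462 and 511 CPM, a log2 fold change of -1.25 ± 0.11 (edgeR adjusted p = 1.42e-05).

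The kinase gene itself, Cdk1 (ENSMUSG00000019942, mm10 chromosome 10, 69335146 to 69352938), had 99.9, 110.4, 90.3, 94.4 and 115 CPM in the GFP high libraries and 176, 226, 207, 244 and 239 CPM in the GFP low ones. All GFP high libraries lay below all GFP low libraries, and the log2 fold change was -1.10 ± 0.11 (edgeR adjusted p = 2.46e-05). The small CDK-binding subunits followed, with -1.05 ± 0.10 for Cks1b (118 to 153 against 237 to 305 CPM) and -0.90 ± 0.14 for Cks2. They are paralogs, and the handling of reads with several matches is unknown. Cks2 was also lower in replicates 4 and 5 than in replicates 1 to 3 of both groups (GFP high 99.0, 106, 89.9, 72.4 and 71.9 CPM, GFP low 179, 184, 179.9, 134 and 140.5 CPM).

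The phosphatases that activate CDK1 fell by unequal amounts. Cdc25c, which acts at mitotic entry, had the lowest log2 fold change of the 44 genes, -1.50 ± 0.15 (edgeR adjusted p = 3.01e-05), with 16.8, 20.1, 14.9, 11.4 and 17.8 CPM against 41.0, 54.4, 48.1, 43.2 and 43.1 CPM. Cdc25b, which starts CDK1 activation at the centrosome, had 85.0, 97.7, 96.2, 95.0 and 86.1 CPM against 175, 203, 161, 188 and 182 CPM (-0.98 ± 0.08). Cdc25a, which also acts at the start of S phase, had 58.4, 60.2, 57.0, 65.3 and 60.3 CPM against 85.1, 97.9, 92.0, 76.5 and 66.3 CPM, with groups that came close but did not overlap. Its log2 fold change was -0.47 ± 0.11 (edgeR adjusted p = 0.00568), and in replicates 4 and 5 alone it did not pass (-0.20, adjusted p = 0.283).

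The kinases that hold CDK1 inactive were among the least changed. Wee1 (ENSMUSG00000031016, mm10 chromosome 7, 110122046 to 110143286) had 77.5, 96.8, 90.0, 79.1 and 67.0 CPM in the GFP high libraries and 92.9, 106, 118, 102 and 110.1 CPM in the GFP low ones, so the groups overlapped. Its log2 fold change was -0.37 ± 0.11 (edgeR adjusted p = 0.0233). Without any one of GFP high libraries 1, 4 or 5 or GFP low libraries 2, 3, 4 or 5 it did not pass (log2 fold change -0.37 to -0.29, adjusted p = 0.0531 to 0.0841). With replicate number as a block Wee1 passed (-0.37, edgeR adjusted p = 0.00338). Pkmyt1, the membrane-bound kinase of the same sites (ENSMUSG00000023908, mm10 chromosome 17, 23726336 to 23736735), had 40.4, 39.6, 42.0, 20.2 and 18.4 CPM against 50.5, 65.6, 63.5, 31.7 and 32.8 CPM. Within each group replicates 4 and 5 were the lowest, so the groups overlapped although every pair was lower in GFP high. The log2 fold change of -0.60 ± 0.28 did not pass (edgeR adjusted p = 0.133). It passed with replicate number as a block (-0.62, adjusted p = 0.000236). The fold change of replicates 1 to 3 alone also passed (-0.53, adjusted p = 0.0151), as did that of replicates 4 and 5 alone (-0.75, adjusted p = 0.00810).

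Mastl encodes the Greatwall kinase, which restrains the phosphatase that opposes CDK1. It was the least abundant of the 44 genes per length, with 16.4, 24.6, 14.7, 10.6 and 10.9 CPM in the GFP high libraries and 29.8, 34.2, 21.1, 22.6 and 21.7 CPM in the GFP low ones, and the groups overlapped through GFP high library 2. It passed with a log2 fold change of -0.75 ± 0.23 (edgeR adjusted p = 0.032). It did not pass without any one of GFP high libraries 1, 3, 4 or 5 or GFP low libraries 1 or 2 (-0.74 to -0.62, adjusted p = 0.0608 to 0.0934). With replicate number as a block Mastl passed (-0.78, edgeR adjusted p = 0.000437).

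**Figure D2:**
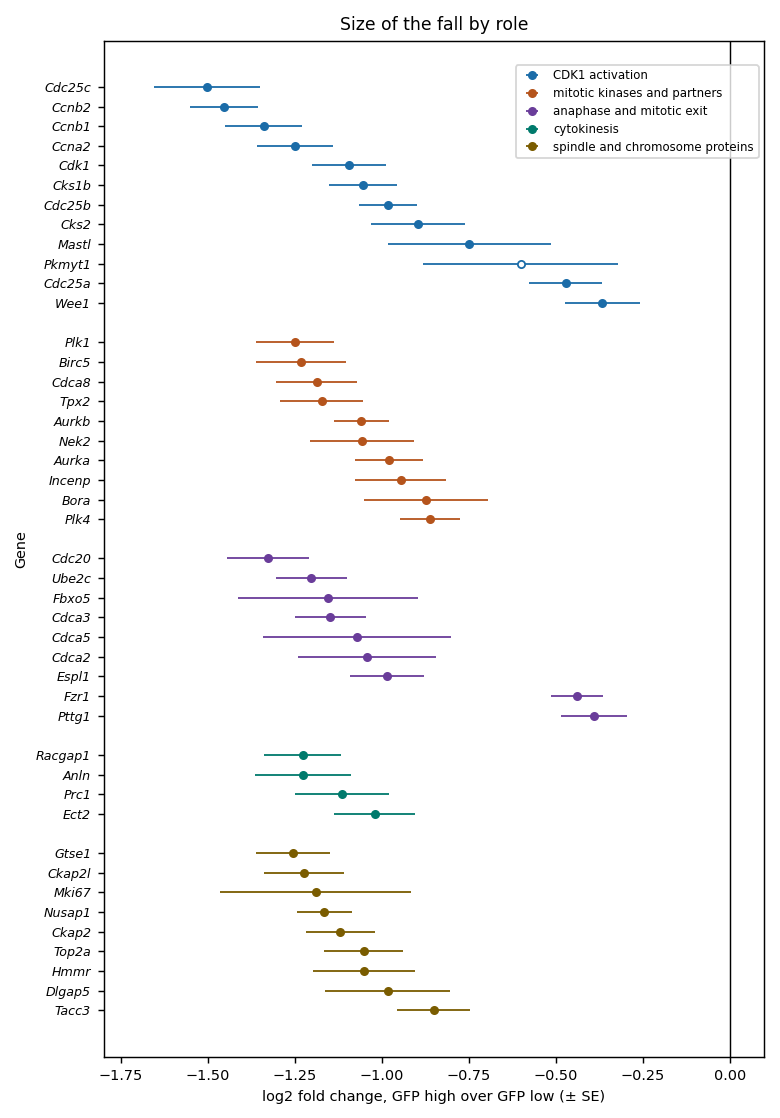
Points are log2 fold changes (GFP high over GFP low) and bars standard errors for the 44 genes, sorted within each role; filled points passed the test and the open point, Pkmyt1, did not. Most genes lie between -1.50 and -0.85, and Mastl, Pkmyt1, Cdc25a, Wee1, Fzr1 and Pttg1 lie nearer 0.

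All 10 genes of the mitotic kinases and their partners fell, with a median log2 fold change of -1.06 and a range of -1.25 to -0.86. Plk1, the polo kinase that acts from mitotic entry to cytokinesis (ENSMUSG00000030867, mm10 chromosome 7, 122159439 to 122169873), had 52.5, 58.6, 45.0, 39.2 and 56.5 CPM in the GFP high libraries and 119, 126, 108, 119 and 126 CPM in the GFP low ones (-1.25 ± 0.11, edgeR adjusted p = 1.43e-05). The groups were far apart. Plk4, the polo kinase of centriole duplication, had 69.2, 72.7, 77.7, 66.7 and 60.8 CPM against 120.5, 138, 130, 128 and 114 CPM (-0.86 ± 0.09). Aurka, the spindle pole aurora kinase, had 53.4, 60.6, 45.9, 55.8 and 55.3 CPM against 95.5, 109.6, 96.0, 113 and 120.2 CPM (-0.98 ± 0.10), and its activator Tpx2 had 118, 147, 112, 92.3 and 111 CPM against 264, 298, 262, 225 and 259.7 CPM (-1.17 ± 0.12). In all of these the groups stood apart. Bora, the cofactor with which aurora A activates PLK1, had 71.2, 48.0, 50.2, 40.4 and 39.8 CPM against 119, 96.2, 95.8, 70.0 and 76.7 CPM. Here GFP high library 1 was above GFP low library 4, and the log2 fold change was -0.87 ± 0.18 (edgeR adjusted p = 0.00319). Nek2, a kinase of centrosome separation, fell by 1.06 ± 0.15 (36.02 to 58.8 against 77.6 to 116 CPM).

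The 4 genes of the chromosomal passenger complex, which corrects wrong attachments of chromosomes and later marks the division plane, fell together. Its kinase gene Aurkb (ENSMUSG00000020897, mm10 chromosome 11, 69045647 to 69051664) had 111, 113, 95.5, 104 and 105 CPM in the GFP high libraries and 194, 236, 225, 224 and 223 CPM in the GFP low ones, with little spread within either group (-1.06 ± 0.08, edgeR adjusted p = 6.96e-06). Birc5, which encodes survivin, had 132, 163, 126, 106 and 137 CPM against 291, 381, 344, 267 and 277 CPM (-1.23 ± 0.13). Cdca8, which encodes borealin, fell by 1.19 ± 0.12 (85.8 to 121 against 193 to 262 CPM). The scaffold gene Incenp fell by 0.95 ± 0.13 (97.6 to 138 against 169 to 248 CPM). For all 4 genes no GFP high library reached the lowest GFP low library.

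All 9 genes of anaphase and mitotic exit fell, with a median of -1.07, but 2 of them fell far less than the others. Cdc20, the mitotic activator of the anaphase-promoting complex (ENSMUSG00000006398, mm10 chromosome 4, 118432901 to 118437352), had 105, 122, 104, 78.1 and 91.3 CPM in the GFP high libraries and 219, 276, 273, 229 and 258 CPM in the GFP low ones (-1.33 ± 0.12, edgeR adjusted p = 1.43e-05). Fzr1, whose product CDH1 keeps the complex active after mitosis and in resting cells (ENSMUSG00000020235, mm10 chromosome 10, 81366222 to 81378516), had 92.4, 96.9, 98.8, 81.3 and 92.0 CPM against 127, 124, 129, 123 and 123 CPM. The GFP low values of Fzr1 were almost level, and the groups stood apart with a log2 fold change of only -0.44 ± 0.07 (edgeR adjusted p = 0.000977). Ube2c, the ubiquitin-conjugating enzyme of the complex, had 133, 167, 116, 128 and 140.5 CPM against 306, 358, 317, 301 and 298 CPM (-1.203 ± 0.10).

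Fbxo5 encodes EMI1, an inhibitor of the same complex. It had 123, 168, 147, 80.0 and 77.0 CPM in the GFP high libraries and 242, 359, 356, 189 and 181 CPM in the GFP low ones. Replicates 4 and 5 had the lowest values of both groups, and the groups still did not overlap (-1.15 ± 0.26, edgeR adjusted p = 0.00575). Pttg1, which encodes securin (ENSMUSG00000020415, mm10 chromosome 11, 43420250 to 43426251), had 86.4, 99.0, 95.8, 85.9 and 90.5 CPM against 109, 132, 137, 119 and 102 CPM, so the highest GFP high library was close to the lowest GFP low library (-0.39 ± 0.09, edgeR adjusted p = 0.00899). Espl1 encodes separase, the protease that securin holds back and that cuts cohesin. It had 32.6, 42.0, 37.8, 36.05 and 42.1 CPM against 62.3, 76.1, 75.2, 78.5 and 85.3 CPM (-0.99 ± 0.11). Cdca5, which encodes sororin, a protector of cohesin, had 80.6, 96.5, 81.3, 48.2 and 41.7 CPM against 138, 201, 200, 99.4 and 94.4 CPM, and the groups overlapped because replicates 4 and 5 were low in both (-1.07 ± 0.27, edgeR adjusted p = 0.0112). Cdca3, a ubiquitin ligase adaptor for mitotic entry, fell by 1.15 ± 0.10 (67.1 to 81.4 against 144 to 201 CPM). Cdca2, which brings a phosphatase to anaphase chromatin, fell by 1.04 ± 0.20 (33.3 to 65.2 against 79.5 to 142 CPM), with the same low replicates 4 and 5 as Fbxo5 and Cdca5.

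All 4 cytokinesis genes fell at least 2-fold, with a median of -1.17, and in each of them the groups stood apart. Racgap1, a subunit of the centralspindlin complex at the midzone (ENSMUSG00000023015, mm10 chromosome 15, 99620496 to 99651656), had 145, 175, 149, 124 and 144 CPM in the GFP high libraries and 303, 411, 368, 314 and 330.1 CPM in the GFP low ones (-1.23 ± 0.11, edgeR adjusted p = 1.43e-05). Ect2, the exchange factor that centralspindlin recruits to activate RhoA, had 80.2, 114, 106, 82.7 and 98.9 CPM against 165, 224, 186, 190.2 and 212 CPM (-1.02 ± 0.12). Anln, which encodes the contractile ring scaffold anillin, had 29.0, 46.4, 41.4, 32.1 and 38.5 CPM against 82.3, 94.1, 90.3, 71.1 and 100.5 CPM (-1.23 ± 0.14). Prc1, the bundler of midzone microtubules, had 77.5, 123, 86.1, 81.3 and 98.2 CPM against 186, 250.2, 192, 185 and 198 CPM (-1.11 ± 0.14), with GFP low library 2 above the other 4.

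**Figure D3:**
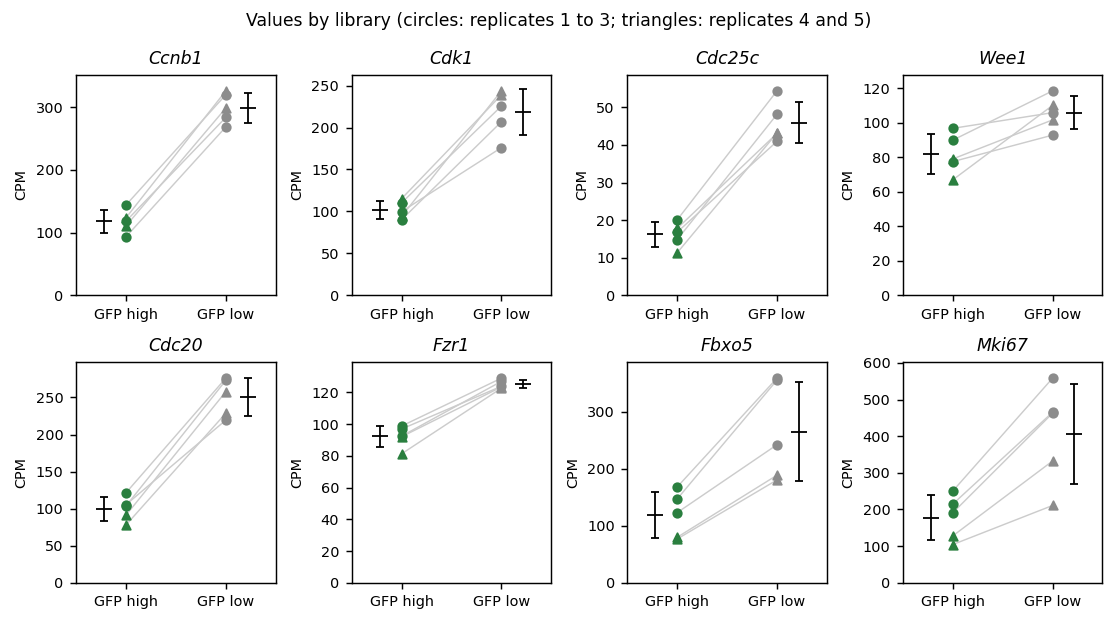
CPM of 8 genes in each library; lines join libraries of the same replicate number, circles are replicates 1 to 3, triangles replicates 4 and 5, and bars beside the points are mean ± SD (n = 5). Every line rises from GFP high to GFP low, steeply for Ccnb1, Cdk1, Cdc25c and Cdc20 and less so for Wee1 and Fzr1, and Fbxo5 and Mki67 have their triangles lowest in both groups.

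The 9 spindle and chromosome proteins fell as well, with a median of -1.12 and a range of -1.26 to -0.85. Top2a, the topoisomerase that untangles sister chromatids (ENSMUSG00000020914, mm10 chromosome 11, 98992943 to 99024189), had the highest CPM of the 44 genes, 417, 603, 408, 445 and 457 in the GFP high libraries and 839, 1082, 897, 974 and 1043 in the GFP low ones (-1.05 ± 0.11, edgeR adjusted p = 4.51e-05). Its highest GFP high library, number 2, was still below all GFP low libraries. Mki67, which coats mitotic chromosomes and is used as a marker of cycling cells (ENSMUSG00000031004, mm10 chromosome 7, 135689784 to 135716361), had 191, 251, 215, 104 and 128 CPM against 463, 558, 465, 211 and 332 CPM. The groups overlapped, since GFP high libraries 2 and 3 were above GFP low library 4 (-1.19 ± 0.27, edgeR adjusted p = 0.00664). Gtse1, a microtubule regulator of G2 and mitosis, had 52.8, 43.5, 49.0, 41.4 and 40.5 CPM against 110.1, 123, 118, 94.6 and 96.9 CPM (-1.26 ± 0.11). Ckap2 and Ckap2l, which encode related spindle proteins, fell by 1.12 ± 0.10 (35.9 to 49.3 against 87.5 to 106 CPM) and 1.22 ± 0.12 (65.3 to 92.6 against 158 to 215 CPM). Nusap1, a microtubule bundler, fell by 1.17 ± 0.08 (138 to 163 against 311 to 355 CPM). Of 3 further genes of spindle assembly, Hmmr fell by 1.05 ± 0.15 (56.1 to 91.2 against 126 to 189 CPM), Dlgap5 by 0.98 ± 0.18 (48.3 to 85.1 against 88.6 to 176 CPM) and Tacc3 by 0.85 ± 0.11 (106 to 147 against 195 to 256 CPM). In these 6 genes no GFP high library reached the lowest GFP low library.

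To ask whether partner genes fell by different amounts, 14 ratios of counts between 2 members were compared between groups on the log2 scale (two-sided exact permutation test, 5 against 5 libraries, Benjamini-Hochberg adjusted over the 14 ratios). The pairs were chosen with their values known. The p-values and their adjustment do not cover that choice, so they only describe the pairs chosen. A ratio does not depend on library scaling, and only its change is read, since the genes differ in length. The ratio of Cdc20 to Fzr1 was 0.10 ± 0.16 in GFP high and 0.998 ± 0.15 in GFP low (log2, SD), a change of -0.89 (exact permutation p = 0.00794, the smallest this design can give, adjusted p = 0.0222). Cdc20 was reduced more than Fzr1 in 5 of 5 pairs of equally numbered libraries. The ratio of separase to securin, Espl1 to Pttg1, changed by -0.60 (from -0.67 ± 0.25 in GFP low to -1.27 ± 0.11 in GFP high), and the ratio of Cdc25b to Wee1 by -0.61 (from 0.78 ± 0.21 to 0.17 ± 0.14). Both had the same exact permutation p and adjusted p = 0.0222. In both, no GFP high library overlapped the GFP low libraries.

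Among the CDC25 phosphatase genes, Cdc25c fell more than Cdc25a (ratio change -1.06) and more than Cdc25b (-0.54), each with adjusted p = 0.0222 by the exact permutation test and in 5 of 5 pairs. Ccnb1 fell more than Cdk1 (-0.26) and Plk1 more than Plk4 (-0.40), both in 5 of 5 pairs and with adjusted p = 0.0476 by that exact test, although the groups overlapped. Those 2 calls were lost when 1 library was left out, whichever library except GFP high library 2 for Ccnb1 to Cdk1 (-0.30 to -0.20) and except GFP high library 5 for Plk1 to Plk4 (-0.45 to -0.32), with adjusted p = 0.0635 to 0.0952 in exact tests of both. With 1 library fewer the smallest p that this test can give is larger, so the loss does not by itself show dependence on single libraries. The other 7 ratios did not pass. They were Ccnb2 to Ccnb1 (-0.10), Ccna2 to Ccnb1 (0.10), Cks1b to Cks2 (-0.15), Aurka to Aurkb (0.08), Tpx2 to Aurka (-0.20), Birc5 to Incenp (-0.29) and Fbxo5 to Cdc20 (0.17), with adjusted p = 0.125 to 0.437 (exact permutation test). Of these 7, the ratios Fbxo5 to Cdc20, Ccnb2 to Ccnb1 and Tpx2 to Aurka also went 1 way in 5 of 5 pairs, which the exact test, made without the pairing, does not use. A ratio that did not pass is not shown to be equal in both groups.

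**Figure D4:**
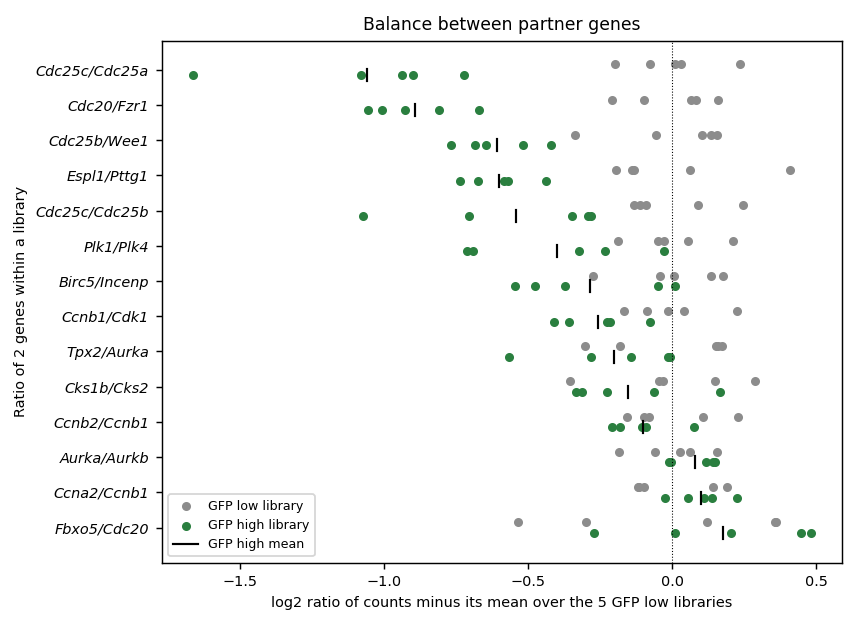
Each row is the log2 ratio of counts of 2 genes within a library, set to 0 at the mean of the 5 GFP low libraries; grey points are GFP low libraries, green points GFP high libraries and black bars the GFP high means. The green points lie wholly left of the grey points for Cdc25c/Cdc25a, Cdc20/Fzr1, Cdc25b/Wee1, Espl1/Pttg1 and Cdc25c/Cdc25b, and the 2 colours overlap in the other rows.

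Another pattern ran across both GFP groups. In 14 of the 44 genes both libraries numbered 4 and 5 were below all libraries numbered 1 to 3, in GFP high and in GFP low alike, as for 11.5% of tested genes, and 0 of the 44 showed the opposite order in both groups, as 11.7% of tested genes did. The 14 genes were Cks2, Pkmyt1, Bora, Tpx2, Fzr1, Fbxo5, Cdca5, Cdca2, Tacc3, Ckap2l, Dlgap5, Hmmr, Gtse1 and Mki67. The gap (mean log2 CPM of replicates 4 and 5 minus that of replicates 1 to 3) was -1.07 in GFP high and -0.88 in GFP low for Pkmyt1, -0.93 and -0.87 for Cdca5, -0.91 and -0.90 for Mki67, and -0.89 and -0.77 for Fbxo5. Others of the 14 had small gaps, with -0.15 and -0.04 for Fzr1 and -0.30 and -0.18 for Tpx2. Outside the 14, the gap was 0.01 and -0.04 for Ccnb2 and 0.04 and -0.07 for Ccna2. Of all 44 genes 42 fell in a fit of replicates 1 to 3 and 43 in a fit of replicates 4 and 5, against 12.5% and 11.1% of the genes tested in each. Mki67 had a log2 fold change of -1.15 within replicates 1 to 3 and -1.24 within replicates 4 and 5, Fbxo5 -1.10 and -1.25, and Cdca5 -1.04 and -1.12. Among the 14 genes Cdca2 had the widest difference between these 2 fold changes, with -0.91 and -1.30, and Pkmyt1 had -0.53 and -0.75. Outside the 14 genes, Nek2 (-0.87 and -1.37) and Mastl (-0.59 and -1.06) differed more. Cdc25a (-0.62 and -0.20) also differed more, in the other direction. Whether the fold changes differ between the sets of replicates was not tested. The labels give no batch or animal that would set these libraries apart, and the source of the gap was not tested.

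Per length of annotated exons, the CDK-binding subunits and cyclin B2 led the 44 genes in GFP low, with 245 ± 24.1 for Cks1b, 236 ± 34.8 for Cks2 and 214 ± 24.1 for Ccnb2 (RPKM, which is CPM divided by exon length in kilobases, mean ± SD, n = 5). Neighbours in this order did not differ beyond their SDs, although Cks1b was above Ccnb2 in 5 of 5 GFP low libraries. Cdc20 (134 ± 13.8), Fbxo5 (132 ± 43.6), Ccna2 (123 ± 16.3) and Ube2c (121 ± 9.44) came next, and neighbours among these 4 again lay within their SDs. At the low end were Anln (9.67 ± 1.25), Cdc25c (9.34 ± 1.10), Espl1 (8.63 ± 0.955) and Mastl (4.48 ± 1.01). In GFP high the first places were those of Cks2 (127 ± 22.2), Cks1b (118 ± 12.7) and Ccnb2 (78.2 ± 7.43). Pttg1 moved from place 15 to place 9 (60.0 ± 7.42 to 45.8 ± 2.88), and Ccnb1 from place 12 to place 15 (70.9 ± 5.72 to 28.0 ± 4.38). Lengths are unions of all annotated exons, so genes with long, rarely used transcripts are understated.

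Of the 44 genes 14 share exon bases with a gene on the opposite strand, and whether counting used strand is unknown. The largest shared part was 22.8% of Ube2c, with Tnnc2, which did not pass the low-count filter. Exosc9 shares 12.5% of Ccna2 and had a log2 fold change of -0.35, and Oip5 shares 4.24% of Nusap1 and had one of -1.21, both past the test. In the other direction, 9930104L06Rik, which overlaps Cdca8, was higher in GFP high (0.73).

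The rest of the mitotic machinery was read from lists that were likewise chosen with earlier results known. Over all tested genes 15.4% fell and 12.0% rose, and the counts of each list are to be read beside these shares. Among 14 core subunits of the anaphase-promoting complex, 5 fell and 0 rose, with a median of -0.26. Anapc5 (-0.60 ± 0.07) and Anapc13 (-0.65 ± 0.14) had the lowest p. Of 13 genes listed with the phosphatases that counter CDK1, 3 fell (23.1%) and 1 rose (median -0.06). Ensa and Arpp19 of this list encode substrates of the Greatwall kinase and not phosphatases. The catalytic subunits Ppp1ca (-0.55 ± 0.10) and Ppp1cc (-0.38 ± 0.07) fell, and so did Arpp19 (-0.29 ± 0.07), named after its values were seen. The one that rose, Ensa, whose product is a substrate of the Greatwall kinase, had 0.21 ± 0.06, and did not pass without any one of GFP high library 4 or GFP low libraries 3 or 5 (0.20 to 0.21, edgeR adjusted p = 0.0582 to 0.0711).

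Of 13 genes that transcribe the mitotic programme or encode DREAM and NF-Y subunits, 6 fell and 2 rose (median -0.30). E2f2 (-1.32 ± 0.11) and Mybl2, which encodes B-MYB (-0.97 ± 0.10), fell. Foxm1 also fell (-0.98 ± 0.20, edgeR adjusted p = 0.00298) and was named after its values were seen. The 2 that rose encode subunits of the MuvB core shared by the repressing and activating complexes. The core as a whole did not rise. Of its other genes on the list, Rbbp4 fell (-0.49 ± 0.10, edgeR adjusted p = 0.00262). Lin54 (-0.21 ± 0.14) and Lin9 (0.15 ± 0.09) did not pass. Rbbp4, Lin54 and Lin9 were added here with their results already known. Lin52 had 61.3 ± 5.96 CPM in the GFP high libraries and 44.6 ± 4.68 CPM in the GFP low ones (0.46 ± 0.10), and Lin37 had 0.45 ± 0.14. Lin37 did not pass without any one of GFP high libraries 2 or 3 or GFP low libraries 2, 3 or 5 (0.38 to 0.46, edgeR adjusted p = 0.0580 to 0.0743).

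Cohesin and its protectors had 8 of 12 genes lower and 0 higher (median -0.48), and the lowest p were those of the replication-coupled acetyltransferase gene Esco2 (-1.08 ± 0.16) and the subunit gene Stag1 (-0.62 ± 0.08). By size the shugoshin genes, protectors of centromeric cohesin, fell more (Sgo2a -1.22 ± 0.23, Sgo1 -1.13 ± 0.19), and they were named after their values were seen. The G2 DNA damage checkpoint had 3 of 10 tested genes lower and 0 higher (median -0.08), with Chek1 at -0.99 ± 0.13 and Chek2 at -0.57 ± 0.15. Chek2 did not pass without GFP high library 1 or GFP low library 4 (-0.50 to -0.49, edgeR adjusted p = 0.0511 to 0.0533). In the abscission list 1 of 11 tested genes fell (9.09%, below the 15.4% of all tested genes) and 0 rose (median -0.11). The gene that fell was Cep55, which recruits the membrane-cutting machinery to the midbody (-1.05 ± 0.12), and Chmp4b, second by p, had a log2 fold change of 0.39 ± 0.19 that did not pass (edgeR adjusted p = 0.137). With the replicate block Chmp4b passed at 0.38 (edgeR adjusted p = 0.0417), and with 1 library left out it was 0.25 to 0.49, the lowest without GFP high library 3. Of 8 parts of SCF ubiquitin ligases 3 fell and 0 rose (median -0.26), including the F-box genes Skp2 (-1.16 ± 0.10) and Ccnf (-0.90 ± 0.14).

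Cyclins and kinases of interphase moved both ways, with 5 of 11 lower and 3 higher (median -0.15). Ccne2 fell by 1.65 ± 0.11 and Cdk4 by 0.60 ± 0.10. Ccnd2, a cyclin of G1, rose (1.95 ± 0.36, 629 ± 226 against 163 ± 91.2 CPM), as did its partner Cdk6 (0.42 ± 0.13) and Cdk7, the kinase that activates other CDKs (0.29 ± 0.10). Of the partner genes of Cdk7, Ccnh fell (-0.30 ± 0.09) and Mnat1 did not pass (-0.15 ± 0.10), both named after their values were seen. Cdk6 did not pass without any one of GFP high library 4 or GFP low libraries 2 or 3 (0.36 to 0.37, edgeR adjusted p = 0.0557 to 0.0590), and Cdk7 did not pass without any one of GFP high libraries 2, 4 or 5 or GFP low libraries 1, 2 or 3 (0.24 to 0.30, edgeR adjusted p = 0.0507 to 0.0870). Of these 9 lists the S phase genes had the median nearest to that of the mitotic regulators, with 28 of 30 lower, 0 higher and a median of -0.98, beside -1.07 for the 44 genes. The nucleotide enzyme gene Rrm2 (-1.15 ± 0.09) and the chromatin assembly gene Chaf1b (-1.18 ± 0.09) had the lowest p among them. Whether the mitotic and S phase lists differ was not tested.

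**Figure D5:**
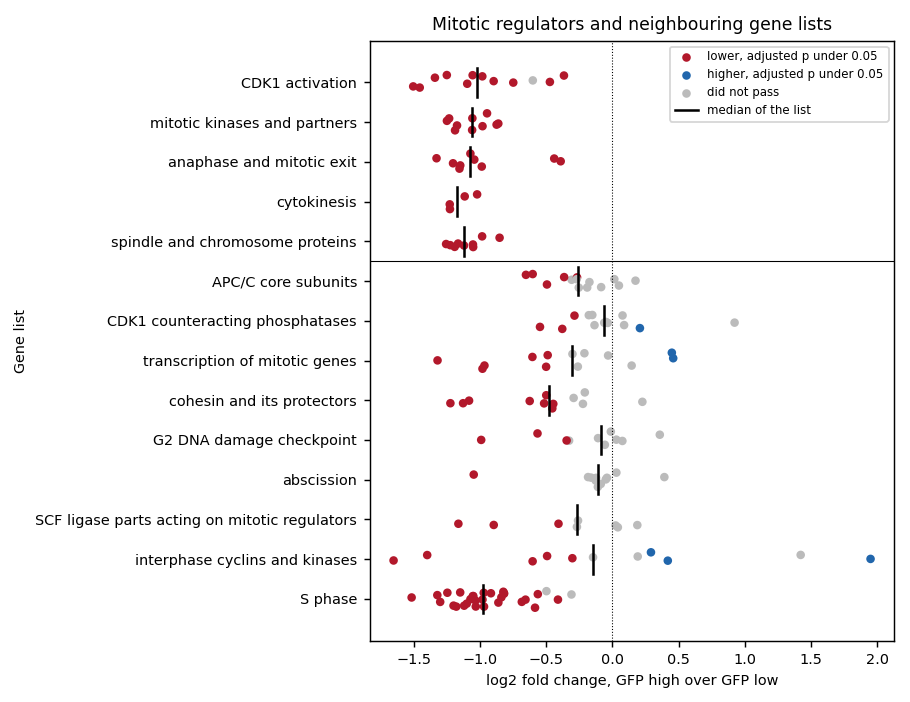
Each point is a gene at its log2 fold change (GFP high over GFP low), coloured by whether it passed the edgeR test, in the 5 role groups of the 44 mitotic regulators (above the line) and 9 further lists (below); black bars are medians. The 5 role groups have medians of -1.17 to -1.02, S phase is at -0.98 and the other lists are at -0.48 to -0.06.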

How the data were processed

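Per the labels, RNA of sorted cells was amplified by template switching from very small amounts before sequencing. The authors deposited raw counts per gene, as whole numbers and not normalized, for 55573 Ensembl genes in 10 libraries, which were assigned to groups and replicate numbers by their titles. The submitters' processing notes name mm10, STAR, featureCounts and DESeq2. Versions, strand and the treatment of reads with several matches are not given in the sources used here. Symbols and positions came from GENCODE M21 (GRCm38, the same build as mm10), which held 99.83% of the identifiers.

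Genes were kept by filterByExpr, scaled by TMM and tested without covariates by the quasi-likelihood test of edgeR 4.0.16 in R 4.3.3. Benjamini-Hochberg adjustment covered all 12772 tested genes, with a threshold of 0.05. The CPM values use TMM-scaled library sizes, and 3 counts in a library correspond to 0.203 to 0.291 CPM, for counting error only. The code was tested on simulated data. Same-numbered libraries deviated together (correlations 0.248 to 0.353 in 5 pairs, -0.304 to 0.321 among 20 pairs of different number, and 5 of 5 GFP high libraries correlated best with their own number), so the numbers were taken to pair the libraries, on this evidence from the data and not from the labels. No libraries of a group agreed within sampling noise (lowest chi-square per gene 7.33).

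The genes, role groups and further lists were chosen with earlier results of these data known. All 44 genes were named. From each further list the 2 genes of lowest p were named, with up to 3 that passed in the direction opposite to most. A few others were named after their values were seen, as stated where they appear. Alternatives were a replicate block, RLE scaling, DESeq2 1.42.0, other filters, subsets of replicates and leaving out each library. The recomputation of ratios without each library and within pairs was chosen after seeing the data.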

Additional observations from a re-analysis of the deposited data

Results flagged for a closer look

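Of 164 groups of 5 libraries examined, 3 held a library whose gap to the nearest other library was large for the range of its group (Dixon's criterion). Chance gives about 1 in 20 for a single group. The groups reuse the same 10 libraries over genes that move together, so the 3 cannot be set against that share. Prc1, the midzone microtubule bundler, was at 250.2 CPM in GFP low library 2, where the other 4 GFP low libraries had 184.7 to 197.7 CPM. Top2a, the topoisomerase, was at 603.3 CPM in GFP high library 2, where the other 4 GFP high libraries had 408.3 to 457.2 CPM. The cohesin gene Stag1 was at 191.3 CPM in GFP low library 1, below the 225.8 to 234.0 CPM of the other 4 GFP low libraries.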

How the results depend on the processing

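With a replicate block 44 of the 44 genes were lower in GFP high, in place of 43, where 2688 of 12772 tested genes were lower. Pkmyt1 was the only one of the 44 whose call the block changed, and among the named genes of the further lists it changed only that of Chmp4b. Calls lost under alternatives below (Wee1, Mastl, Cdc25a, Ensa, Lin37, Chek2, Cdk6 and Cdk7) held with the block (edgeR adjusted p = 9.96e-05 to 0.01125). Fits with 1 library left out do not use the pairing that the block uses. Over all tested genes the block gave 5333 calls in place of 3511, of which 2645 were higher in place of 1538. Without both libraries numbered 3 there were 2293 calls, 926 of them higher. With 1 library left out, 41 to 43 of the 44 genes were lower and 0 higher, and over all genes 2829 to 3419 were called, 1189 to 1479 higher and 1617 to 1940 lower. RLE scaling, DESeq2, no filter and a filter of at least 1 CPM in 5 libraries each gave 43 lower and 0 higher of the 44. No value of the 44 genes, of the ratios or of the genes named from the further lists by p or direction changed sign under the alternatives run. Among the 44 genes the calls that were lost were those of Wee1, Mastl and Cdc25a, and the causes were not tested. Without both libraries numbered 3 the log2 fold change was -0.36 for Wee1 (edgeR adjusted p = 0.0787) and -0.79 for Mastl (edgeR adjusted p = 0.0777). In replicates 1 to 3 alone it was -0.24 for Wee1 (edgeR adjusted p = 0.204) and -0.59 for Mastl (edgeR adjusted p = 0.107). Of the genes named from the further lists by p or direction, Ensa (0.22, edgeR adjusted p = 0.117) and Cdk7 (0.31, edgeR adjusted p = 0.0726) did not pass with no filter. In replicates 1 to 3 alone Chek2 (-0.31, edgeR adjusted p = 0.249), Ensa, Cdk6 and Cdk7 did not pass, and in replicates 4 and 5 alone Lin37 (0.28, edgeR adjusted p = 0.352), Ensa and Cdk7 did not. Without both libraries numbered 3 the calls of Ensa, Lin37, Cdk6 and Cdk7 were lost (edgeR adjusted p = 0.0556 to 0.119). No member had fewer than 126 counts in a library.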
